A study of Mus musculus with 9 samples.

Results

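The 10 genes described here set or remove the methylation of histone H3 at lysine 9 (H3K9), partner such enzymes or assemble histones on new DNA, and were followed in the testes of Pfn3 mutant mice. The members were the rows of the deposited table whose symbol was Ehmt1, Ehmt2, Wiz, Setdb1, Suv39h1, Suv39h2, Kdm3a, Kdm4d, Chaf1a or Chaf1b, which gave 10 of the 38674 genes in the table. Ehmt2 and Chaf1a were picked from the measured values, since they belong to the genes the study displayed for Pfn3–/– (KO) against Pfn3+/+ (WT) testes, so their values are described here with no test. The other 8 genes were chosen by function, though earlier results of these data were known. The 9 samples were testes of male C57BL/6 mice freed of the tunica albuginea, 3 each of WT, Pfn3+/– (Het) and KO animals. Pfn3 encodes a testis profilin, an actin-binding protein, and was mutated with CRISPR/Cas9. Several deletion lines were established, and the labels do not say which of them was sequenced. The study's methods describe the males of its experiments as sexually mature adults and give their age as a range of several months. The labels give no age for the single animals.

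H3K9 methylation marks silent chromatin. EHMT1 (GLP) and EHMT2 (G9a) work as a pair, with the zinc finger protein WIZ as their partner, and place mainly mono- and dimethyl marks in euchromatin. SETDB1 silences transposable elements, and SUV39H1 and SUV39H2 trimethylate the repeats around centromeres. KDM3A and KDM4D are demethylases, and KDM3A is known to be needed for the packaging of spermatid chromatin. CHAF1A and CHAF1B are subunits of chromatin assembly factor 1 (CAF-1), which deposits H3 and H4 behind the replication fork.

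QuantSeq samples the 3′ ends of polyadenylated RNA, and values are normalized counts, meaning reads on a gene scaled by the size factor of its library. The samples held 3375546 to 4287335 reads on genes, and a detection limit of 3 reads corresponded to 2.58 to 3.71 normalized counts, which covers counting error only. WT replicate 1 stood apart, with a mean Pearson r to the other samples of 0.772 against 0.803 to 0.865 for the rest. Pfn3 itself was at 592, 383 and 373 normalized counts in WT, 136, 339 and 326 in Het and 74.7, 215 and 279 in KO animals. Since 3′ reads can lie outside the deleted part, this does not check the genotype labels. The 4 markers of elongating spermatids, transition proteins and protamines, summed to 233289 to 249362 normalized counts in WT, 179063 to 214894 in Het and 123388 to 199672 in KO testes. The sums of 6 round spermatid markers were 5500 to 8664, 4721 to 6422 and 3453 to 4671. Single markers differed. Tnp1, Tnp2, Prm2, Tssk1, Catsper1 and Spata18 were lower in every KO than in every WT testis, while Prm1, Acrv1, Spaca1 and Tex101 overlapped. The sums of 6 spermatocyte markers ran the other way. They were 3807 to 4927 in WT, 3939 to 6159 in Het and 5532 to 6706 in KO testes. Of these 6, only Sycp1 and Sycp3 were higher in every KO than in every WT testis, and the others overlapped. The mean log2(value + 1) of the 6 overlapped too, at 7.76, 7.45 and 8.39 in WT and 8.06, 8.93 and 7.77 in KO testes. In whole testis, fewer cells of a type and less RNA per cell cannot be told apart, and the part of these shifts in the values below was not tested. Summed Leydig cell, Sertoli cell, spermatogonial, macrophage and epididymis markers overlapped between the genotypes, and the epididymis marker Lcn5 was at 0 in all samples.

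The promoters of Ehmt2 and Chaf1a are shown because these are the 2 members picked from the KO against WT values. The 250 bases before the first listed RefSeq start of each gene (GRCm38.p6) lie at chr17:34898224-34898473 for Ehmt2 and chr17:56040166-56040415 for Chaf1a, both on the plus strand. Capitals mark CACGTG, a form of the E-box, and other forms were not searched.
Ehmt2: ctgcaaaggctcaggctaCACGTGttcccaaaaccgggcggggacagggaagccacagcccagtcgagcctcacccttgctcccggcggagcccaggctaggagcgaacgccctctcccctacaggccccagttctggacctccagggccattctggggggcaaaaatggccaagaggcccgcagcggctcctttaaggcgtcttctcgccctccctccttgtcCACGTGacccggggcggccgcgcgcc
Chaf1a: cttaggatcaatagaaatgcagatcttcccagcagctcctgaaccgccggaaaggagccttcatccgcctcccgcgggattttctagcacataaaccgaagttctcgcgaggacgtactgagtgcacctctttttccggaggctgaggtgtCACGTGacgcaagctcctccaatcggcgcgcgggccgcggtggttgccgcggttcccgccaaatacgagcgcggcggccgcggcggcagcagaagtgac
The Ehmt2 window held CACGTG 232 and 26 bases before the start, and the Chaf1a window held it 99 bases before the start. CACGTG, which reads the same on both strands, was in 6.02% of 32851 promoter windows of this length. It was in 3 of the 17 windows of the 10 genes, those of Ehmt2 and Chaf1a. It was 1 of 7 motifs searched on both strands, and the motifs were chosen after the promoters had been seen. Of the others, the GC box (GGGCGG) was in 12 of the 17 windows, of 8 genes, against 32.7% of all windows. The E2F site (TTCCCGC) was in 4 windows, of Suv39h2, Wiz, Chaf1a and Chaf1b, against 3.82%. The ETS site (CCGGAAG) was in 4, of Setdb1, Kdm3a, Kdm4d and Chaf1b, against 6.91%. The cAMP response element (TGACGTCA) was in 1, of Suv39h2, against 1.55%, and CCAAT was in 7, of 6 genes, against 33.8%. No member window held TATAAA, which was in 12.4% of all windows. The 17 member windows, which matched all 10 genes, had a GC content of 46.0% to 84.0%.

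Ehmt2 (ENSMUSG00000013787, chromosome 17, 34898469 to 34914052, plus strand) was low in every KO testis. WT testes held 40.9, 396 and 359 normalized counts. Het testes held 13.2, 432 and 9.52, and KO testes 8.59, 4.84 and 10.7. The KO values rested on 10, 5 and 12 reads, and the 3 KO animals lay below all WT animals. The Het animals did not sit together, since Het replicate 2 was the highest of all 9 samples and Het replicates 1 and 3 were near the KO level. WT replicate 1 was between those levels. The mean was 265 ± 195 (SD, n = 3) in WT, 152 ± 243 in Het and 8.05 ± 2.98 in KO testes. On the log2(value + 1) scale KO differed from WT by -4.38 ± 0.91 (SE), Het from WT by -2.18 ± 1.64 and KO from Het by -2.21 ± 1.42. Without WT replicate 1 the first of these was -5.44. The Het against WT value was -3.89 without Het replicate 2, -3.23 without WT replicate 1, -1.43 without Het replicate 1 and -1.21 without Het replicate 3, and the count models gave -0.80 (DESeq2) and -0.79 (edgeR). For KO against Het these models gave -4.23 and -4.19, and the gene fell below the filter when Het replicate 1, Het replicate 2 or KO replicate 3 was left out.

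Chaf1a (ENSMUSG00000002835, chromosome 17, 56040439 to 56072289, plus strand), the large subunit of CAF-1, showed a similar split. It was at 241, 115 and 112 normalized counts in WT, 14.2, 85.7 and 7.41 in Het and 18.0, 17.4 and 15.2 in KO animals. All Het and KO animals lay below the WT animals, and Het replicate 2 was again the highest animal of its genotype. The means were 156 ± 73.9 (SD, n = 3) in WT, 35.8 ± 43.4 in Het and 16.9 ± 1.49 in KO testes. The log2 difference was -3.04 ± 0.35 (SE) for KO against WT, -2.72 ± 0.89 for Het against WT and -0.32 ± 0.85 for KO against Het. The last difference was 0.66 without Het replicate 2, -0.60 without Het replicate 1 and -1.02 without Het replicate 3, and it was -1.08 with DESeq2 and -1.06 with edgeR. The annotated 3′ end of Chaf1a lies inside Ubxn6, a gene on the opposite strand with 4648 shared exonic bases, which was at 1611 to 3776 normalized counts. The strand setting of the counting is not given in the sources used here, so reads from these genes may not be told apart. Annotated genes on the opposite strand also cover the 3′ ends of Setdb1, Suv39h1 and Suv39h2, with levels of at most 193, 0.0 and 17.7 normalized counts. The 3 comparisons share animals, since each genotype enters a pair of them.

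**Figure D1:**
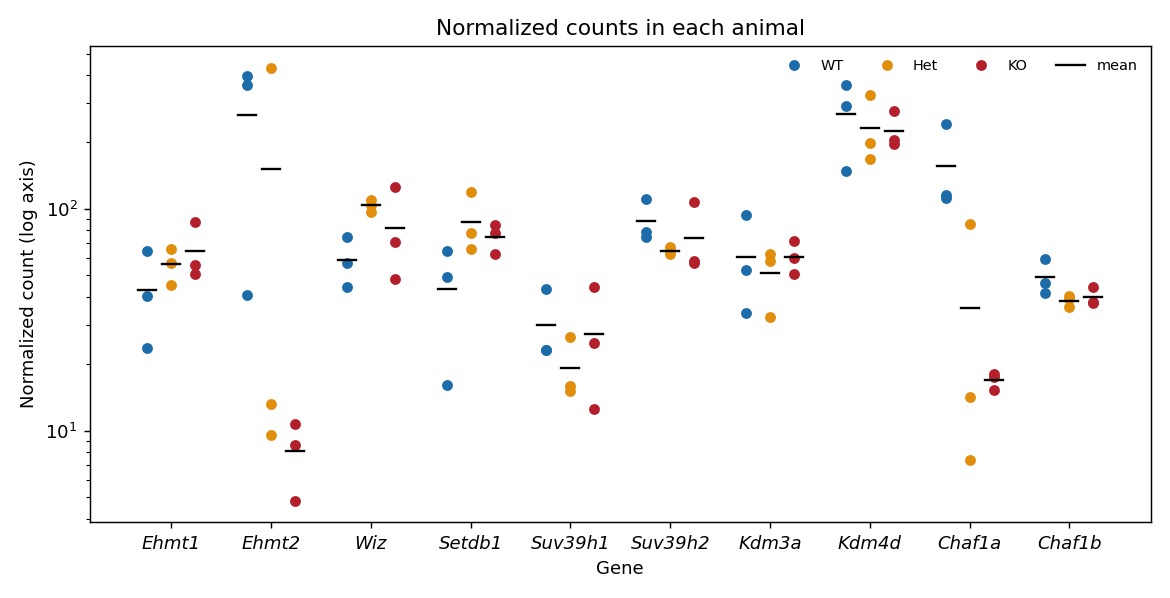
Normalized counts (log axis) of the 10 genes in each of 9 testes, coloured by genotype, with the mean as a black line. Ehmt2 ranged from 4.84 to 432 and Chaf1a from 7.41 to 241, while the other genes kept within a narrower band.

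Ehmt1, which encodes the catalytic partner of EHMT2, was at 23.5, 40.5 and 64.7 normalized counts in WT, 56.7, 66.1 and 45.5 in Het and 55.8, 87.1 and 50.9 in KO animals. The genotypes overlapped, and the lowest animal was WT replicate 1. KO differed from WT by 0.65 ± 0.43 (SE) on the log2 scale (limma, adjusted p = 0.643), and by 0.29 without WT replicate 1. Wiz, the zinc finger partner, was at 57.0, 44.4 and 74.3 in WT, 110, 104 and 96.3 in Het and 48.1, 126 and 70.6 in KO animals. The 3 Het animals were above all WT animals, while the KO animals spanned the WT range and more. The log2 difference was 0.84 ± 0.26 for Het against WT (limma, unadjusted p = 0.0162, adjusted p = 0.779) and 0.39 ± 0.41 for KO against WT (adjusted p = 0.708). The latter was 0.024 when KO replicate 2 was left out, 0.21 when WT replicate 2 was, and 0.71 when KO replicate 1 was.

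Among the trimethylases, Setdb1 was at 16.1, 49.2 and 64.7 normalized counts in WT, 119, 77.3 and 65.6 in Het and 62.7, 77.4 and 84.0 in KO animals. The Het animals lay above the WT animals by a narrow margin, and WT replicate 1 was far below the rest. KO differed from WT by 0.97 ± 0.52 (SE) on the log2 scale (limma, adjusted p = 0.628), and Het from WT by 1.16 ± 0.56 (adjusted p = 0.779). Without WT replicate 1 these values were 0.39 and 0.58. Suv39h1, on the X chromosome, was at 43.3, 23.2 and 23.2 in WT, 15.1, 15.8 and 26.5 in Het and 24.9, 44.5 and 12.5 in KO animals. The KO against WT difference of -0.23 ± 0.52 (adjusted p = 0.865) was 0.06 without WT replicate 1 and 0.22 without KO replicate 3. Suv39h2, the form known for its testis expression, was at 110, 74.3 and 78.2 in WT, 64.2, 67.0 and 62.4 in Het and 56.7, 107 and 58.1 in KO animals. The Het animals were below the WT animals, by -0.41 ± 0.24 (adjusted p = 0.779), and KO replicate 2 was within the WT range.

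The demethylases overlapped between genotypes. Kdm3a was at 94.1, 33.8 and 53.1 normalized counts in WT, 62.4, 32.6 and 58.2 in Het and 71.3, 60.0 and 50.9 in KO animals. The KO against WT log2 difference was 0.12 ± 0.40 (SE; limma, adjusted p = 0.918), with the WT animals spread most widely. Kdm4d was at 147, 361 and 289 in WT, 168, 326 and 198 in Het and 274, 196 and 204 in KO animals. Its KO against WT difference was -0.16 ± 0.37 (adjusted p = 0.868). Both values turned sign when WT replicate 2 was left out, to -0.23 for Kdm3a and 0.11 for Kdm4d.

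Chaf1b, another CAF-1 subunit, differed less between animals than Chaf1a. It was at 59.4, 46.3 and 41.5 normalized counts in WT, 35.9, 39.1 and 40.2 in Het and 37.8, 44.5 and 37.5 in KO animals. The KO animals overlapped the WT animals and the Het animals lay just below them. As for Chaf1a, WT replicate 1 was highest. The r between the subunits over the 9 samples, a description, was 0.69. Chaf1b was at rank 1032 among genes ordered by r to Chaf1a. The log2 difference was -0.28 ± 0.24 (SE) for KO against WT (limma, adjusted p = 0.670) and -0.33 ± 0.24 for Het against WT (adjusted p = 0.779).

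**Figure D2:**
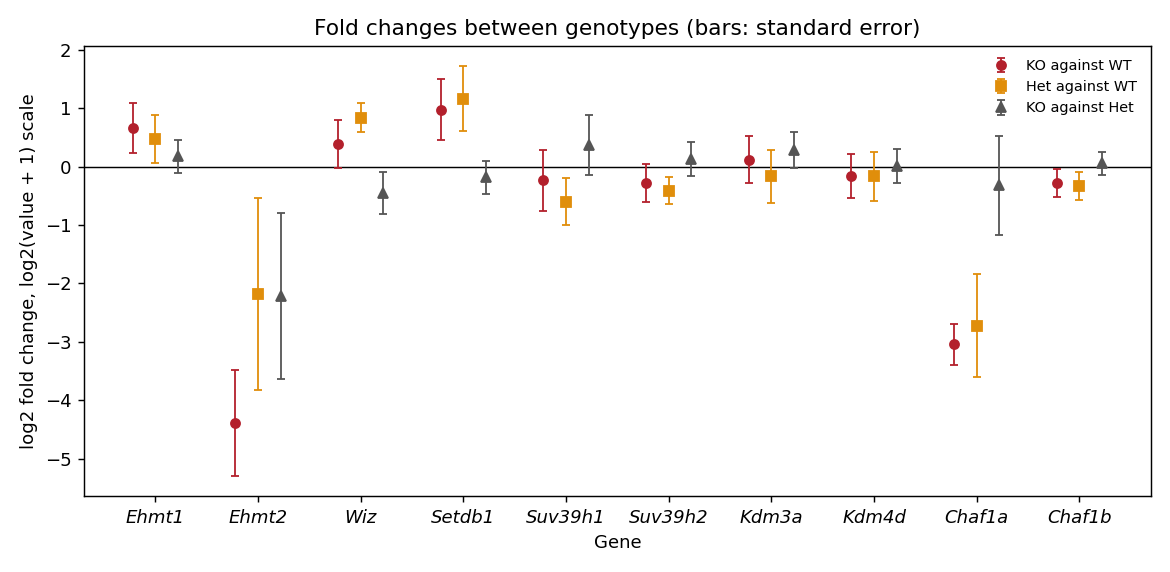
The log2 fold changes of the 10 genes in the 3 comparisons, on the log2(value + 1) scale, with standard errors as bars. Ehmt2 and Chaf1a reach -4.38 and -3.04 for KO against WT, and the other 8 genes lie between -0.28 and 0.97.

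Of the 8 genes chosen by function, 0 passed the cutoffs (an adjusted p below 0.05 with a log2 difference larger than 1.5, up or down) in any comparison with limma, DESeq2 or edgeR. For KO against WT the background over all genes tested was 0.0352% with limma, 0.707% with DESeq2 and 0.0352% with edgeR. At an unadjusted p under 0.05 it was 8.07%, with 0 of the 8 genes. Values of KO and WT testes overlapped in all 8, against 19.9% of all genes without overlap. Of the 8, 4 were higher and 4 lower in KO, and their median log2 difference was -0.02 against 0.02 over all genes.

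For Het against WT the background was 0.0% with limma, 0.22% with DESeq2 and 0.0% with edgeR. At an unadjusted p under 0.05 it was 3.34%, with Wiz as the 1 of the 8 genes. The Het and WT animals did not overlap for 4 of the 8 genes, with Setdb1 and Wiz higher and Suv39h2 and Chaf1b lower in Het, against 13.3% of all genes. For KO against Het the background was 0.0558% with limma, 0.267% with DESeq2 and 0.0488% with edgeR, and 3.56% at an unadjusted p under 0.05, with 0 of the 8 genes. All 8 overlapped between KO and Het animals, against 10% of all genes without overlap. Over all genes, limma called 5 of 14223 for KO against WT, 0 of 14216 for Het against WT and 8 of 14343 for KO against Het, and these counts moved with single libraries. For KO against WT, leaving out WT replicate 1 gave 49 calls, and leaving out KO replicate 2 as well gave 57. Dropping KO replicate 1 gave 11 and dropping KO replicate 3 gave 1. Dropping WT replicate 2, KO replicate 2 or WT replicate 3 gave 0. For KO against Het, dropping Het replicate 2 gave 39, and dropping any other library gave 0 or 1. For Het against WT, dropping Het replicate 2 gave 3.

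Of the 10 genes, Ehmt2 and Chaf1a had the widest spread among animals of 1 genotype, pooled over the 3 genotypes. The genotypes differed in it. Chaf1a ran from 7.41 to 85.7 normalized counts in Het but only from 15.2 to 18.0 in KO testes. Ehmt2 ran from 9.52 to 432 in Het and from 4.84 to 10.7 in KO testes. The pooled SD of Ehmt2 and Chaf1a on the log2(value + 1) scale was 2.04 and 1.08. These were at percentiles 94.9 and 80.4 of the 14865 genes that passed the filter over all 9 samples. The median gene had an SD of 0.45. Among the other genes, Setdb1 had 0.66 and Suv39h1 0.63, and Chaf1b had the lowest with 0.18, at percentile 4.81.

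**Figure D3:**
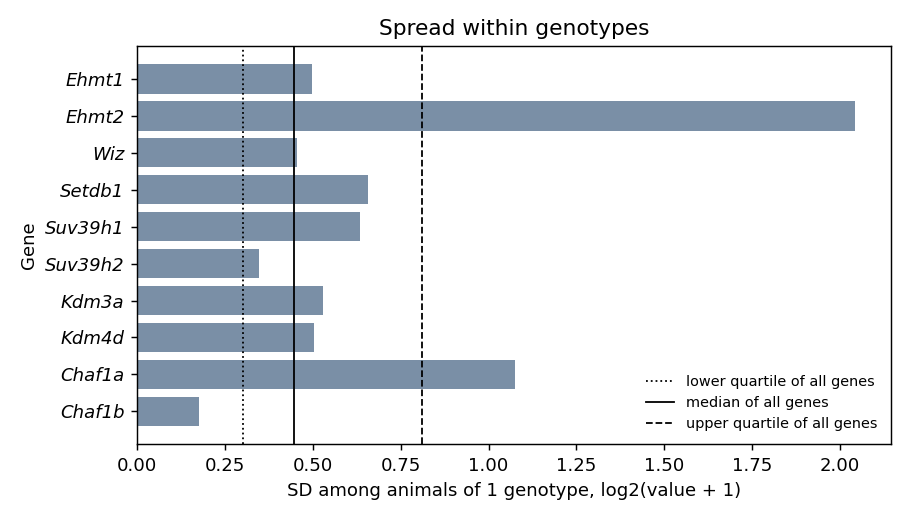
Pooled SD of log2(value + 1) among the 3 animals of a genotype for each of the 10 genes, with vertical lines at the quartiles and the median over 14865 genes. Ehmt2 at 2.04 and Chaf1a at 1.08 lie beyond the upper quartile of 0.81.

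Genes with a profile like that of Ehmt2 over the 9 samples were Cnbd2 (Pearson r = 0.98), Rtf1 (0.98), Atg2a (0.96), Ldha (0.96) and Rcn3 (0.96). The r is a description, since the genes were measured in the same 9 samples. Ldha, which encodes a lactate dehydrogenase subunit, was at 31.0, 2333 and 1947 normalized counts in WT, 14.2, 1992 and 15.9 in Het and 38.7, 19.3 and 24.1 in KO animals. Its high animals were WT replicates 2 and 3 and Het replicate 2, as for Ehmt2, which follows from choosing these genes by r. Atg2a, an autophagy gene, was at 11.1, 133 and 260 in WT, 3.78, 156 and 9.52 in Het and 6.87, 4.84 and 4.47 in KO animals. Rtf1, a transcription elongation factor, had a smaller range, from 408 to 637, with its 3 highest values in those same animals.

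For Chaf1a the nearest genes were Ly6e (r = 0.98), Wdr60 (0.97), 4930415O20Rik (0.97), Smarca2 (0.97) and Tmem269 (0.97). Smarca2, a chromatin remodelling ATPase, was at 1624, 971 and 1229 normalized counts in WT, 633, 1138 and 447 in Het and 608, 511 and 504 in KO animals. Ly6e was at 171, 134 and 108 in WT, 14.2, 133 and 5.29 in Het and 19.8, 11.6 and 12.5 in KO animals. In both genes Het replicate 2 was within the WT range. The r between Ehmt2 and Chaf1a was 0.78, with Ehmt2 at rank 487 among genes ordered by r to Chaf1a.

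**Figure D4:**
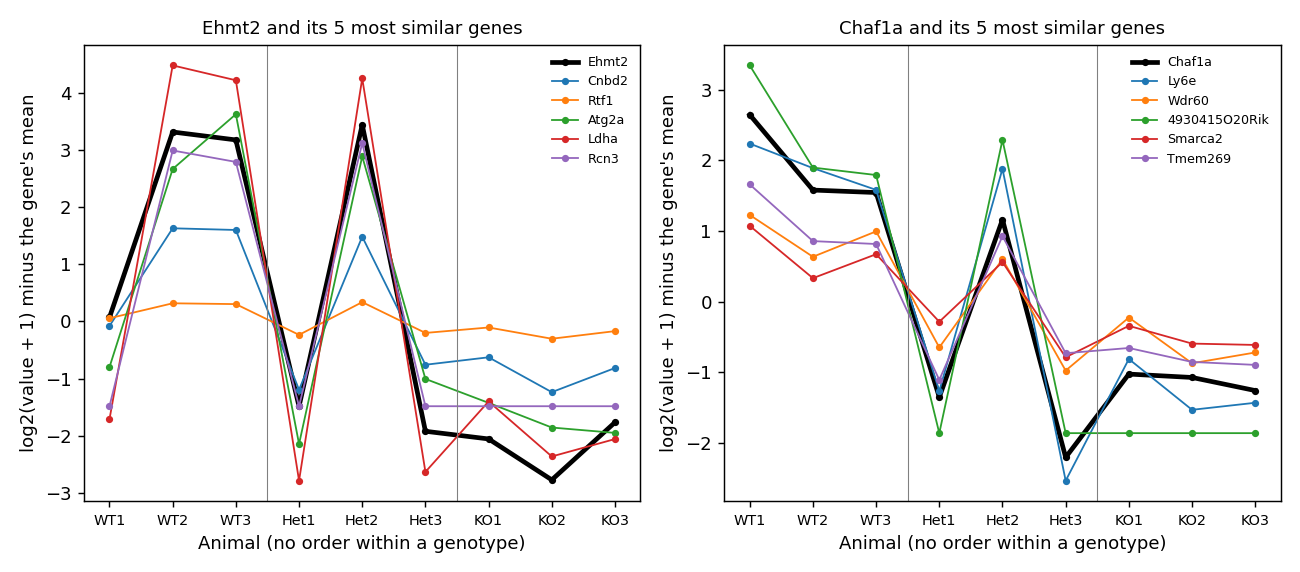
Each line is a gene over the 9 animals, as log2(value + 1) minus the gene's mean, with Ehmt2 and Chaf1a in black and their 5 most similar genes in colour. Het replicate 2 is the highest Het animal for both genes, above the WT animals for Ehmt2 and below them for Chaf1a, and WT replicate 1 is lower than WT replicates 2 and 3 for Ehmt2 but highest for Chaf1a.

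The other genes of the pathway were read from 4 lists. Of 49 symbols, 47 were in the table and 44 were tested for KO against WT, and 0 were called by limma in any of the 3 comparisons. At an unadjusted p under 0.05 (limma), 3 of the 44 passed, 2 higher and 1 lower in KO than in WT, against 8.07% of all genes. KO and WT animals did not overlap for 8 of the 44 (18.2%), close to the 19.9% of all genes. The lists' medians lay between -0.05 and 0.12 on the log2 scale.

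Among readers of methylated H3K9, Cbx1, which encodes HP1 beta, was at 462, 403 and 478 normalized counts in WT and 548, 733 and 611 in KO animals, a log2 difference of 0.49 ± 0.19 (SE; limma, adjusted p = 0.610). Fam208a, a subunit of the HUSH silencing complex, was at 209, 134 and 141 in WT and 234, 308 and 233 in KO animals (0.69 ± 0.25, adjusted p = 0.610). Cbx3, which encodes HP1 gamma, was at 253, 200 and 223 in WT and 168, 188 and 163 in KO animals (-0.37 ± 0.19, adjusted p = 0.616). These genes were picked because their KO and WT animals lay apart, and their Het animals overlapped the WT animals.

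Of the histone chaperones, Ssrp1, a subunit of FACT, was at 388, 156 and 202 normalized counts in WT, 101, 155 and 59.3 in Het and 129, 90.0 and 78.6 in KO animals. The log2 difference of KO against WT was -1.24 ± 0.39 (SE; limma, adjusted p = 0.610). Ubn2, a subunit of the HIRA complex, was at 432, 306 and 436 in WT and 451, 552 and 528 in KO animals (0.40 ± 0.22, adjusted p = 0.629). Of the demethylases, Jmjd1c was at 80.5, 73.3 and 85.0 in WT and 100, 158 and 107 in KO animals (0.58 ± 0.25, adjusted p = 0.610), and Kdm7a at 171, 149 and 149 against 191, 172 and 174 (0.20 ± 0.18, adjusted p = 0.680). Zfp644, a zinc finger partner of the EHMT pair, was at 201, 190 and 201 in WT, 140, 174 and 169 in Het and 234, 237 and 229 in KO animals (0.24 ± 0.17 for KO against WT, adjusted p = 0.643). These 5 genes, too, were picked because no KO animal lay within the WT range. The Het animals also lay apart from the WT animals for Ssrp1 and Zfp644, both lower, and for Jmjd1c, higher at 111, 90.3 and 112. They overlapped the WT animals for Ubn2 and Kdm7a.

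**Figure D5:**
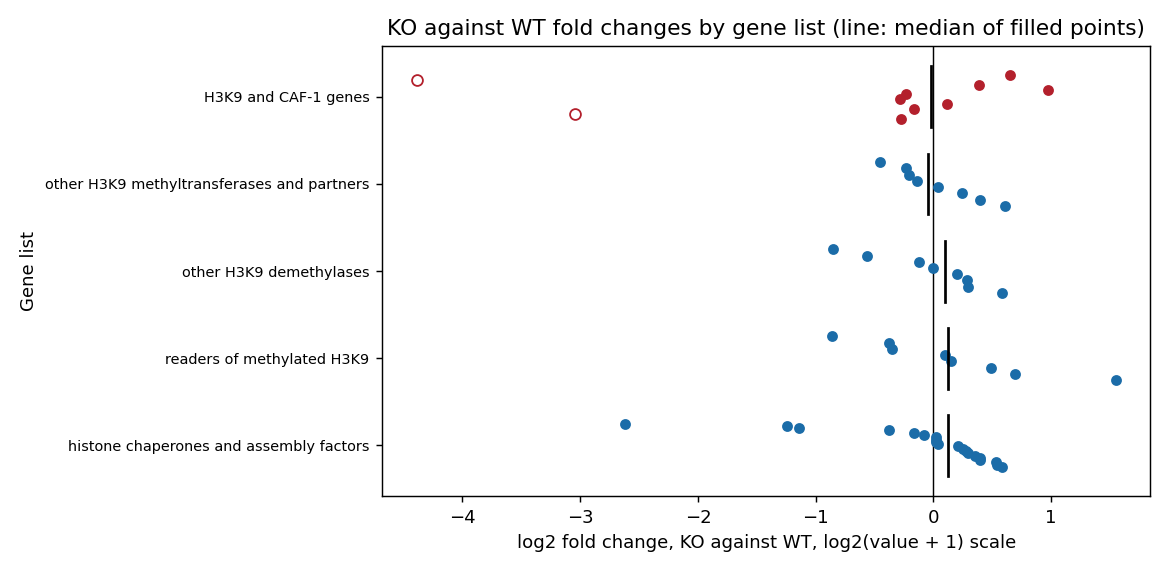
The log2 fold changes of KO against WT, on the log2(value + 1) scale, for the 10 genes (red, with Ehmt2 and Chaf1a as open circles) and for the 4 lists of related genes (blue), with the median of the filled points as a black line. The list medians lie between -0.05 and 0.12.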

How the data were processed

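QuantSeq 3′ libraries from 9 testes, grouped by genotype from the sample titles, were used. Per the labels and the study's methods, the authors trimmed reads with Trim Galore 0.4.5, aligned them to GRCm38 with HISAT2 2.1, counted genes with StringTie 1.3.3 on a merged assembly and removed pseudogenes. The deposited signal values are counts scaled by the DESeq2 size factor of each library. All nonzero values (100%) were whole multiples of 1 read within 0.02, and these reads were recovered for the count tests. The labels number the samples of a genotype without naming animals, and each was taken as 1 animal, so p-values measure only the spread between these samples.

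Log2(value + 1) was tested with limma 3.58.1 (eBayes with trend, R 4.3.3) on the 2 genotypes compared, for genes reaching 10 in 3 or more samples, with Benjamini-Hochberg adjustment over all genes tested. DESeq2 1.42.0 and edgeR 4.0.16 on the recovered reads, other pseudocounts, no filter, TMM factors, a fit of all 9 samples, a replicate block and left-out libraries were alternatives. The functions were tested on simulated data. Members and lists were chosen with earlier results of these data known. Named genes were the 10 members, Pfn3, any list gene called, up to 3 genes a list with the largest KO against WT change among those without overlap, and the 5 genes most correlated with Ehmt2 or Chaf1a. The list symbols Mpp8 and Tasor are other names of Mphosph8 and Fam208a, which were used. Coordinates are from GENCODE M21 (GRCm38). Promoters are from RefSeq (GRCm38.p6). Figures used matplotlib 3.10.9.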

Additional observations from a re-analysis of the deposited data

How the results depend on the processing

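None of the 8 genes chosen by function passed the cutoffs under any alternative in any comparison. For KO against WT, 100 genes were called with DESeq2, 3 with all 9 samples in 1 fit and 0 with the replicate block, against 5. Leaving out 1 library gave 0 to 49, and leaving out WT replicate 1 and KO replicate 2 gave 57. For Het against WT, 31 were called with DESeq2, 3 without a filter, 2 with a pseudocount of 5, 1 with TMM factors, 3 with all 9 samples and 0 with the replicate block, against 0. Leaving out 1 library gave 0 to 3, with 3 without Het replicate 2. For KO against Het, 38 were called with DESeq2, 4 with all 9 samples and 0 with the replicate block, against 8. Leaving out 1 library gave 0 to 39, with 39 without Het replicate 2, and leaving out Het replicate 1 and KO replicate 2 gave 0. These pairs are in each genotype the library least correlated with the others, and were chosen after seeing the data. The cause of these shifts was not tested. The deviations of same-numbered samples from their genotype means had an r of -0.14 to 0.188. For differently numbered samples it was -0.242 to 0.188. The labels do not say whether the numbers pair the samples, and so few correlations cannot decide it.

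Signs turned in 5 of 150 member values for KO against WT, 5 of 150 for Het against WT and 18 of 146 for KO against Het, and none of the 8 tested genes became called. Leave-one-out ranges that crossed 0 were, for KO against WT, -0.66 to 0.22 for Suv39h1, -0.23 to 0.50 for Kdm3a and -0.54 to 0.11 for Kdm4d. For Het against WT they were -0.52 to 0.21 for Kdm3a and -0.54 to 0.10 for Kdm4d. For KO against Het they were -0.0557 to 0.33 for Ehmt1, -0.37 to 0.0576 for Setdb1, -0.0618 to 0.81 for Suv39h1, -0.17 to 0.29 for Suv39h2, -0.0016 to 0.46 for Kdm3a, -0.19 to 0.28 for Kdm4d, -1.02 to 0.66 for Chaf1a and -0.0260 to 0.0939 for Chaf1b. With both least correlated libraries left out, Kdm3a was 0.0402 for Het against WT. For KO against Het, Ehmt1 was then -0.0403, Setdb1 0.0272, Suv39h1 -0.20, Suv39h2 -0.17, Kdm4d -0.10 and Chaf1b -0.0726. Kdm4d was -0.0347 with DESeq2 and -0.0160 with edgeR for KO against Het. Ehmt2 fell below the filter for KO against Het in some of these fits, which then gave no value.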

Other observations

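Several other genes of these lists, singled out after their values were seen, differed widely among animals of 1 genotype. Rbbp4, which encodes a histone-binding protein that CAF-1 contains, was at 22.3, 189 and 218 normalized counts in WT, 368, 167 and 7.41 in Het and 97.1, 6.77 and 4.47 in KO animals. Its KO against WT difference was -2.62 ± 1.36 (SE) on the log2 scale (limma, adjusted p = 0.616), with overlap between the genotypes. Rbbp7, its close relative, was at 11.1, 336 and 292 in WT, 142, 302 and 112 in Het and 116, 159 and 113 in KO animals. Pphln1, a HUSH subunit, was at 4.95, 287 and 302 in WT, 11.3, 274 and 304 in Het and 321, 127 and 314 in KO animals. Kdm4a, a demethylase, was at 58.2, 101 and 4.83 in WT, 130, 6.52 and 85.7 in Het and 74.7, 8.71 and 7.15 in KO animals. WT replicate 1 was the lowest WT animal for Rbbp4, Rbbp7 and Pphln1 but not for Kdm4a.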
